A study of Saccharomyces cerevisiae with 23 samples.

Results

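The histone genes of budding yeast and the divergent promoters they share were examined as targets of Ty1 insertion. The members were the 10 named genes HTA1, HTB1, HTA2, HTB2, HHT1, HHF1, HHT2, HHF2, HTZ1 and HHO1, of 6002 nuclear protein-coding genes, and the 4 shared promoters, of 1527 divergent regions in the genome. They were taken by gene name from a list, with earlier results of these data known, and the rule that lists them uses no measured value. A divergent region was the stretch between the coding sequences of neighbouring protein-coding genes that point away from each other.

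The study induced Ty1, a retrotransposon of the copia type, in the haploid laboratory strain BY4741 (MATa, with the deletions his3delta1, leu2delta0, ura3delta0 and met15delta0). Of its 23 samples, 21 were nucleosome mapping samples and were not analysed here. The other 2 were Ty1 insertion libraries from cells that all carried the plasmid pJEF2365, 1 kept for 24 h in 2% galactose, the inducing sugar, and 1 kept for 24 h in 2% dextrose. Both cultures were first grown in 2% raffinose with 0.1% dextrose, and both were afterwards grown in dextrose and then in dextrose with 1 mg/mL 5-FOA, which kills cells with a working URA3 gene. Each medium had 1 library, so there was no spread between replicates and no test between media.

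In yeast each core histone is encoded by a pair of genes, and the genes are arranged as H2A with H2B and as H3 with H4, each couple reading outward from 1 shared promoter. These promoters are switched on as cells enter S phase, by the activators Spt10 and SBF among others. Most of them, but not all, are held down outside S phase by the HIR complex and the chaperones Asf1 and Rtt106. HTZ1 encodes H2A.Z, the H2A variant placed in the nucleosomes beside promoters, and HHO1 encodes the linker histone. Ty1 is known to insert mainly upstream of genes transcribed by RNA polymerase III, such as tRNA genes, into nucleosomal DNA near the surface formed by H2A and H2B.

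Intervals that shared chromosome, strand and 5′ end were counted as 1 site, and the strand given is that of the interval. The labels do not say which end of an interval lies at the inserted Ty1. Every site position below is that of a 5′ end, unless the 3′ end is named. Galactose held 152129 sites and dextrose 11208, which is 12.6 and 0.929 sites per kb if the sites were spread evenly over the nuclear genome. This even spread is called uniform placement below. Values in brackets are exact 95% intervals for counting error alone, because 1 library per medium gives no spread between replicates. PCR copies carried no molecular identifiers and cannot be taken as separate molecules. A count of 0 is taken to allow up to 3 sites, a fixed floor, while its exact interval reaches 3.69. As a check of the strain label, the body of MET15 (listed as MET17) held 0 galactose sites, HIS3 held 3, LEU2 held 5 and URA3 held 126. The corresponding dextrose counts were 0, 0, 1 and 11. In galactose sites per kb these genes, given as deleted in the label, held between 0 (MET15) and 157 (URA3), with 4.52 at HIS3 and 4.57 at LEU2. How much of each gene body is missing is not stated in the labels, and where the intervals at these genes came from was not tested. Whether any sites at the histone genes are misplaced was not tested either.

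The 4 shared promoters together held 19 galactose sites (11.4 to 29.7) and 2 dextrose sites (0.242 to 7.22) in 2838 bp. Uniform placement gives 35.8 and 2.64 sites there. Each of the 4 had fewer galactose sites per kb than uniform placement, and so had 70.1% of all divergent regions. At least 1 galactose site was found in 3 of the 4 promoters and in 89.5% of all divergent regions. At least 1 dextrose site was found in 2 of the 4 and in 35.2% of all divergent regions.

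The HTA1-HTB1 promoter (chromosome IV, 914713 to 915529, R64 build, 817 bp) drives a gene pair for H2A and H2B. It held 9 galactose sites (4.12 to 17.1), against 10.3 sites under uniform placement, or 11.0 per kb against 12.6. Counted from the start of HTB1, they lay at 6, 52, 55, 57, 93, 144, 237, 653 and 788 bp. Sites were thus gathered on the HTB1 side, with 7 in the part of the promoter nearer to HTB1 and 2 in the part nearer to HTA1, and a stretch of 415 bp around the middle had none. The only dextrose site lay at 55 bp on the minus strand, at the same position and strand as a galactose site. The galactose interval there was 96 bases long and the dextrose interval 54.

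The HTA2-HTB2 promoter (chromosome II, 235793 to 236491, 699 bp) drives the other H2A and H2B pair. It held 6 galactose sites (2.2 to 13.1), or 8.58 per kb, and 0 dextrose sites. Counted from the start of HTA2, the galactose sites lay at 175, 184 and 285 bp on the plus strand and at 529, 549 and 552 bp on the minus strand. All 6 intervals therefore ran from their 5′ end towards the middle of the promoter. The 243 bp between the plus-strand and the minus-strand sites had no 5′ end, but intervals from both sides reached into this stretch.

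The HHT1-HHF1 promoter (chromosome II, 255685 to 256330, 646 bp) drives a gene pair for H3 and H4. It held 0 sites in both libraries, where uniform placement gives 8.14 galactose sites and 0.6 dextrose sites. A count of 0 allows up to 4.64 sites per kb there by the fixed floor, and up to 5.71 by the exact interval. The empty stretch was longer than the promoter. The nearest galactose sites lay at 254897, beyond the 3′ end of HHF1, and at 256437, inside HHT1, and 1539 bp between them had no site. In a uniform placement 19.4 sites would fall in a stretch of that length. Of the 143541 stretches between neighbouring galactose positions over the genome, 292 (0.203%) were at least as long, and together they covered 7.01% of the nuclear positions. The site at 256437 had a mapping score of 32, and with sites of score 60 alone the empty stretch reached 256724 and measured 1826 bp. Whether reads from this stretch could be recovered and placed was not tested.

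The HHT2-HHF2 promoter (chromosome XIV, 576051 to 576726, 676 bp) drives the other H3 and H4 pair. It held 4 galactose sites (1.09 to 10.2), against 8.52 sites under uniform placement, or 5.92 per kb against 12.6. They lay 176, 469, 527 and 597 bp from the start of HHT2, and none of the 4 came from a full-length interval of 96 bases. The only dextrose site lay at 294 bp, where galactose had none.

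**Figure D1:**
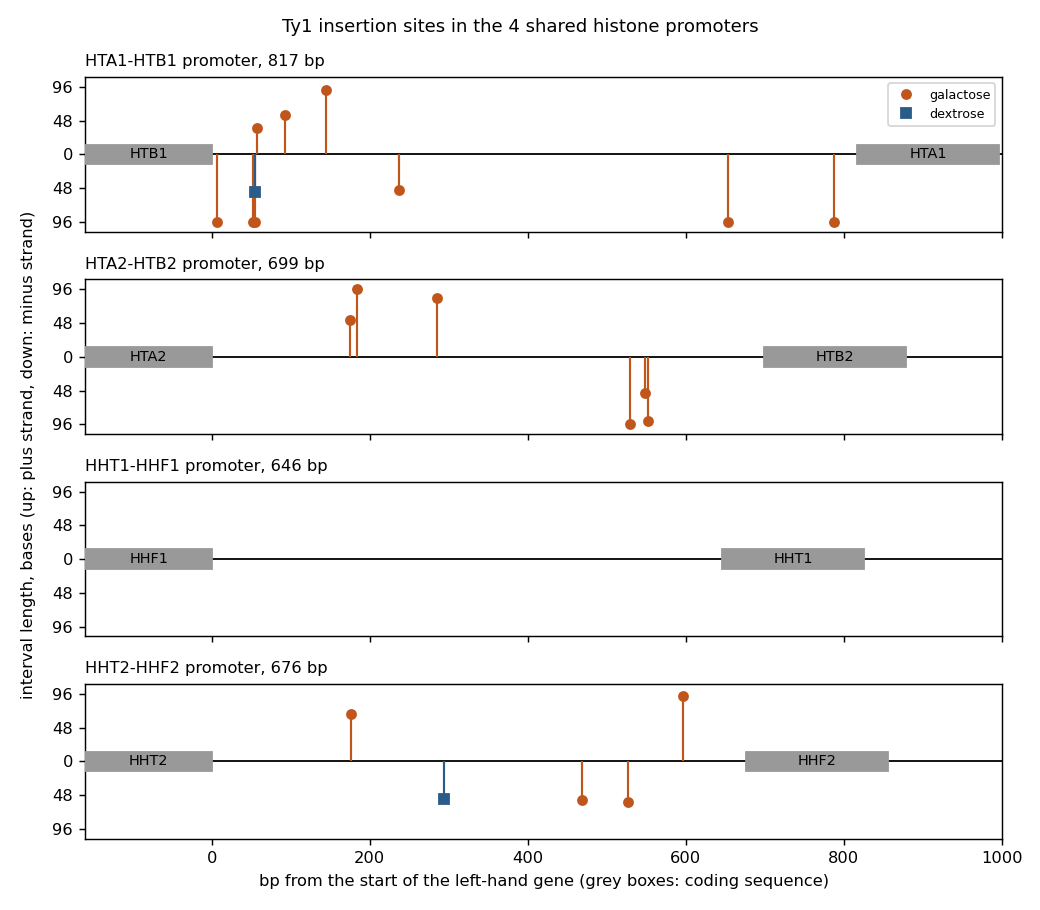
Position of every insertion site in the 4 shared histone promoters, in bp from the start of the left-hand gene (horizontal axis), with the interval length in bases drawn upwards for the plus strand and downwards for the minus strand. Circles are galactose sites and squares dextrose sites. The HTA1-HTB1 sites crowd towards HTB1, the HTA2-HTB2 sites face each other across a centre without 5′ ends, and the HHT1-HHF1 promoter is empty. Sites are drawn at the 5′ end, and the intervals of HTA2-HTB2 reach into that centre.

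Against the other divergent regions, the level of the histone promoters depended on how close the compared regions were to tRNA genes. The 1523 other regions together held 27.8 galactose sites per kb, against 6.69 in the histone promoters, a ratio of 0.241 (0.145 to 0.376). The median of the other regions was 8.53 per kb, far under their pooled density. In galactose 511 of the 1523 had a lower density than HHT2-HHF2, 765 a lower density than HTA2-HTB2 and 964 a lower density than HTA1-HTB1. None can lie below the 0 of HHT1-HHF1, and 160 (10.5%) were also at 0.

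The nearest tRNA genes lay far from the 4 promoters. Measured from its edge, the HHT2-HHF2 promoter was 6111 bp from YNCN0012C, the HTA2-HTB2 promoter 8637 bp from YNCB0006W, the HHT1-HHF1 promoter 10048 bp from YNCB0007W and the HTA1-HTB1 promoter 30220 bp from YNCD0017W. None of the 4 thus lay in the range where divergent regions were densely hit. The 95 other divergent regions with their middle within 1 kb of a tRNA gene held 148 galactose sites per kb. Between 1 and 2 kb the 41 regions held 58.9, and between 2 and 5 kb the 140 regions held 19.4. From 5 to 20 kb, the range of 3 histone promoters, 542 regions held 9.37 per kb with a median of 7.78. Beyond 20 kb, the range of the HTA1-HTB1 promoter, 705 regions held 8.5 per kb with a median of 7.47. In dextrose the corresponding densities over the 5 ranges were 5.97, 1.38, 1.27, 0.645 and 0.725 per kb, against 0.705 in the histone promoters.

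**Figure D2:**
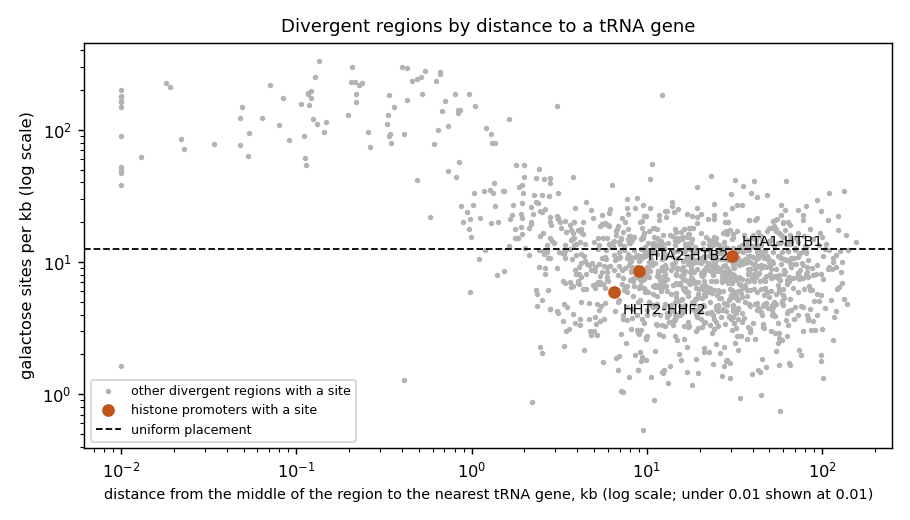
Galactose sites per kb of each divergent region with at least 1 site (vertical axis, log scale) against the distance from its middle to the nearest tRNA gene in kb (horizontal axis, log scale). Grey points are other regions, coloured points the 3 histone promoters with a site and the dashed line uniform placement at 12.6 per kb. Of the regions within 1 kb of a tRNA gene, 92 of 95 lie above the line, and the histone promoters lie inside the cloud of distant regions.

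The closest comparison was with the 687 other divergent regions between 400 and 1200 bp long and over 2 kb from a tRNA gene, which held 9.49 galactose sites per kb with a median of 8.08 (quartiles 4.68 and 12.3). The ratio of the histone promoters to these regions was 0.705, with an interval of 0.424 to 1.1 that included 1. At the density of these regions 26.9 sites would fall in the 4 promoters, against the 19 found. Of the 687 regions, 76.0% were also below uniform placement. HTA1-HTB1 had a higher density than 67.8% of them, HTA2-HTB2 than 52.4% and HHT2-HHF2 than 33.9%. At least 1 galactose site was present in 95.9% of them, and 28 (4.08%) had 0 sites like HHT1-HHF1. Among other divergent regions of any distance at least as long as HHT1-HHF1, 20 of 574 (3.48%) had none. The 20 include the regions beside ASP3-1, ASP3-2, ASP3-3 and ASP3-4, and HXT15-THI13 and THI11-HXT16, both of 2843 bp. Intervals with a mapping score under 30 are absent from the lists. How many of the empty regions lie in repeated sequence was not tested, so these shares may not hold for regions of unique sequence. In dextrose 37.6% of the 687 regions had a site, and their 0.757 sites per kb give 2.15 sites in the 4 promoters, where 2 were found.

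**Figure D3:**
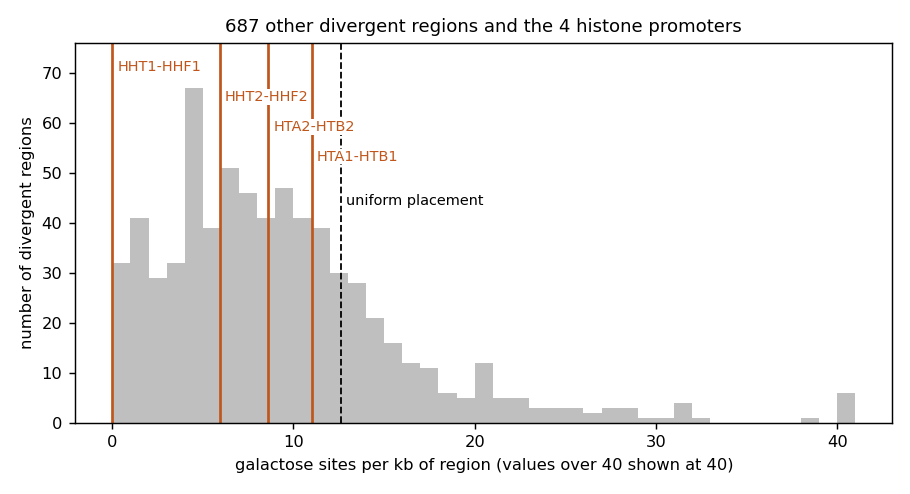
Number of other divergent regions (vertical axis, 687 regions between 400 and 1200 bp and over 2 kb from a tRNA gene) by galactose sites per kb (horizontal axis). Vertical lines mark the 4 histone promoters at 0, 5.92, 8.58 and 11.0 per kb, and the dashed line marks uniform placement at 12.6 per kb. HHT2-HHF2, HTA2-HTB2 and HTA1-HTB1 stand in the bulk of the distribution and HHT1-HHF1 stands at its lower end.

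The 3 regions whose galactose density was closest to the 6.69 per kb of the pooled histone promoters, of the 687, were YRR1-DDP1 on chromosome XV (5 sites in 748 bp), RNA15-DST1 on chromosome VII (3 sites in 446 bp) and DUR3-YHL015W-A on chromosome VIII (3 sites in 454 bp). Their dextrose counts were 0, 2 and 1.

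Within the histone promoters, 5 of the 19 galactose sites, 26.3% (9.15 to 51.2), had their 5′ end in the middle 50% of the region. In the 687 compared regions the share was 51.3% (49.8 to 52.7). The share depends on which end is taken as the site, and it was not counted for 3′ ends. Of the 5 central sites, 1 belonged to HTA1-HTB1, 2 to HTA2-HTB2 and 2 to HHT2-HHF2, and 8 of the 14 outer sites were in HTA1-HTB1. The median distance to the nearer coding start was 150 bp, against 175 bp in the compared regions. The direction of the intervals was looked at after the HTA2-HTB2 pattern had been seen. In the histone promoters 14 of 19 intervals, 73.7% (48.8 to 90.9), ran towards the middle of the region, against 50.2% (48.8 to 51.7) in the compared regions, and 6 of the 14 were those of HTA2-HTB2.

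The interval for the share on the plus strand included 50%. The plus strand carried 8 of the 19 galactose sites (42.1%, 20.3 to 66.5), against 49.4% in the compared regions. Full-length intervals of 96 bases gave 7 of the 19 sites (36.8%, 16.3 to 61.6), against 43.3% (41.9 to 44.8). Of these 7, 5 lay in HTA1-HTB1 and 2 in HTA2-HTB2. On full-length intervals alone the promoters held 2.47 galactose sites per kb and the compared regions 4.11, a ratio of 0.599 (0.241 to 1.24). On shorter intervals alone the values were 4.23 and 5.46, a ratio of 0.774 (0.399 to 1.35). Both dextrose sites came from intervals of 54 bases.

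The 10 kb around each promoter held similar numbers of sites. Within 5 kb of the middle, the HTA1-HTB1 promoter had 78 galactose sites, HTA2-HTB2 had 76, HHT2-HHF2 had 61 and HHT1-HHF1 had 59. The compared regions had a median of 62 (quartiles 51 and 76), and uniform placement gives 126. The dextrose counts were 8, 2, 7 and 7. In 500 bp steps the HHT1-HHF1 counts were 6, 0, 0, 1, 3 and 5 across the central 3 kb. Empty steps also occurred elsewhere: the steps from 4000 to 5000 bp to the right of HHT1-HHF1 held 0, and so did the 3 steps from 2500 to 4000 bp to the right of HTA1-HTB1.

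**Figure D4:**
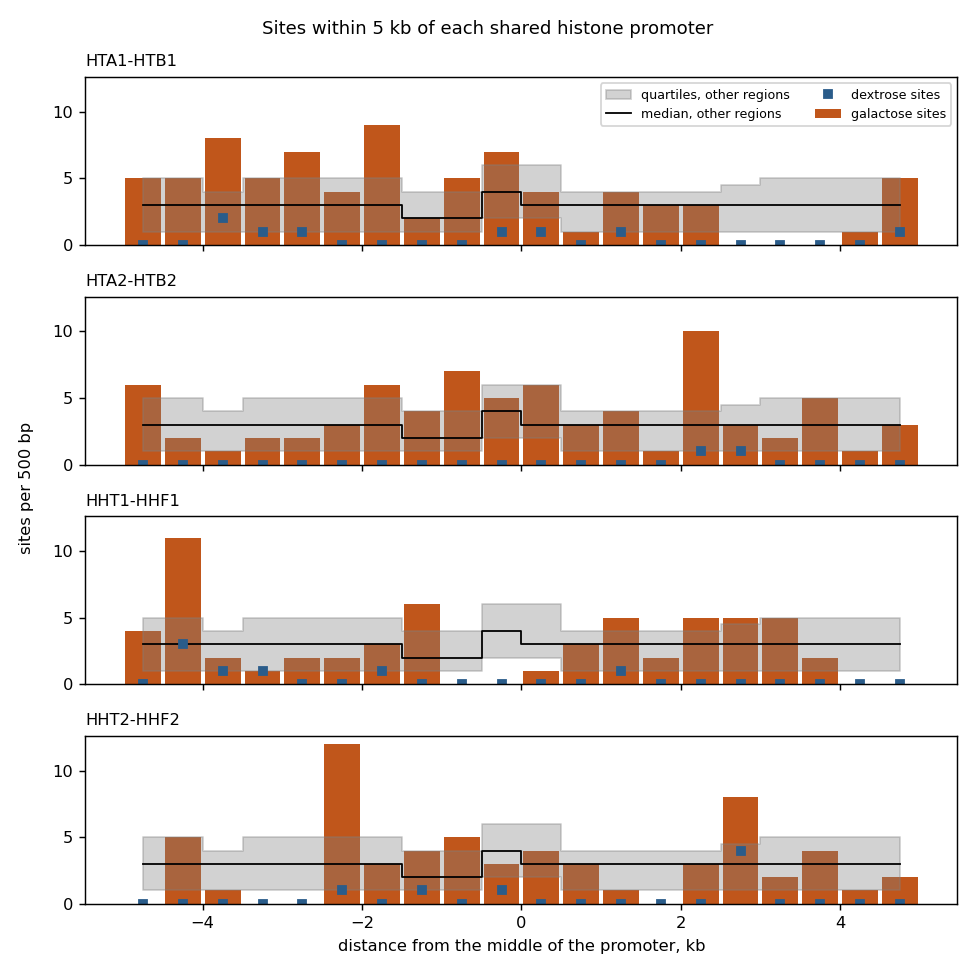
Galactose sites (bars) and dextrose sites (squares) per 500 bp (vertical axis) against the distance from the middle of each shared histone promoter in kb (horizontal axis). The grey band spans the quartiles and the black line the median of 687 compared divergent regions. HHT1-HHF1 has 1 site in the central 1 kb, where the other 3 promoters have between 7 and 11.

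The coding sequences of the 10 genes held 26 galactose sites (17 to 38.1) and 1 dextrose site (0.0253 to 5.57), against 53.2 and 3.92 under uniform placement. By 3′ end they held 39 galactose sites (27.7 to 53.3), an interval that reaches 53.2, a value itself computed from 5′ ends. At least 1 galactose site was found in 9 of the 10 bodies and in 92.7% of all gene bodies. At least 1 dextrose site was found in 1 of the 10 and in 55.5% of all gene bodies, but histone genes are short, and among genes of 300 to 800 bp over 2 kb from a tRNA gene the share was 31.7%. Fewer galactose sites than uniform placement were found in 9 of the 10 bodies and in 89.5% of all gene bodies. Per length, the median of the 10 was 6.17 galactose sites per kb, against 5.39 over all genes and 5.65 over genes of 300 to 800 bp away from tRNA genes.

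Among the H2A and H2B genes, HTA2 (chromosome II, 235394 to 235792) held 5 galactose sites (1.62 to 11.7), HTB2 (chromosome II, 236492 to 236887) 4, HTA1 (chromosome IV, 915530 to 915928) 3 and HTB1 (chromosome IV, 914317 to 914712) 2. The intervals of these counts overlap widely. The only dextrose site in any histone gene body lay in HTA1, 54 bases into the coding sequence, and galactose had a site of the same position, strand and length of 79 bases. In HTA1 and in HTB2, galactose sites of opposite strand had 5′ ends 6 bp apart, at 915583 and 915589 in HTA1 and at 236588, 236594 and 236600 in HTB2.

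Among the H3 and H4 genes, HHF2 (chromosome XIV, 576727 to 577038) held 4 galactose sites (1.09 to 10.2), HHT1 (chromosome II, 256331 to 256741) 3, HHT2 (chromosome XIV, 575640 to 576050) 2 and HHF1 (chromosome II, 255373 to 255684) 0. All 4 sites of HHF2 came from full-length intervals on the minus strand, 63, 255, 291 and 308 bases into the coding sequence. HHT1 and HHT2, which encode the same protein, each had a site 107 bases into the coding sequence on the strand of the gene, with mapping scores of 32 and 30. The copies are similar in sequence, so such sites cannot be assigned to 1 of them with certainty. Of the 23 galactose sites in the bodies of the 8 core histone genes, 7 had a score under 60, against 2.27% of all galactose sites. They were 3 of 4 sites in HHF2, 2 of 3 in HTA1, 1 of 3 in HHT1 and 1 of 2 in HHT2. Scores under 30 did not occur in the deposited intervals, so body counts of the core histone genes are uncertain. All sites in the 4 promoters had a score of 60.

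HTZ1 (chromosome XV, 303579 to 303983) held 1 galactose site and HHO1 (chromosome XVI, 308828 to 309604) held 2, which is 2.47 and 2.57 per kb, with 0 dextrose sites in each. Over the 10 bodies, 12 of 26 galactose sites (46.2%, 26.6 to 66.6) were on the strand of the gene.

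Counted once each, 64 galactose sites (49.3 to 81.7) and 7 dextrose sites (2.81 to 14.4) lay within 1 kb upstream of a histone gene, against 90.3 and 6.65 under uniform placement. By 3′ end there were 79 galactose sites (62.5 to 98.5), an interval that includes 90.3, a value itself computed from 5′ ends. These windows reach across the shared promoters into the partner gene. A galactose site was present upstream of 9 of the 10 genes and of 97.2% of all protein-coding genes, and a dextrose site upstream of 6 of the 10 and of 52.2% of all. Counts below uniform placement were found in 9 of the 10 galactose windows and in 79.6% of all. The median histone gene had 9 galactose sites upstream and the median of all genes was 7 (quartiles 4 and 11).

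HTZ1 had the most, with 18 galactose sites (10.7 to 28.4), against 12.6 under uniform placement. Its interval overlaps those of all members except HHT1, with 0, and HHF1, with 1 (0.0253 to 5.57). A group of 6 HTZ1 sites, 2 on the plus and 4 on the minus strand, lay between 489 and 497 bp upstream (304472 to 304480) and rested on 11 intervals, up to 4 at 1 position. Dextrose had a site at 493 bp, a position and strand also hit in galactose, and another at 867 bp, 1 bp from a galactose site. HTZ1 was the member closest to a tRNA gene, with YNCO0011W (301097 to 301198) 2381 bp from it on the side of its 3′ end. The whole region between HTZ1 and the divergent gene PLB3 (1365 bp) held 23 galactose sites, or 16.9 per kb, and 2 dextrose sites. For the other members the nearest tRNA gene lay between 5700 bp (HHT2) and 30384 bp (HTA1) away.

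HHO1 had 9 galactose sites upstream (4.12 to 17.1). Of these, 5 lay between HHO1 and the divergent gene NAN1, 97, 242, 394, 397 and 568 bp from the start of HHO1, and 4 lay inside NAN1. Dextrose had 1 site in each part. The upstream windows of the core histone genes held 12 galactose sites for HTB1, 11 for HTB2, 9 for HTA1, 9 for HTA2, 8 for HHT2, 6 for HHF2, 1 for HHF1 and 0 for HHT1. The single site of HHF1 is the one of score 32 inside HHT1. These windows are not separate values, since the partners of each pair share a promoter and its sites. The windows of HHF1 and HHT1 both take in the empty HHT1-HHF1 promoter.

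**Figure D5:**
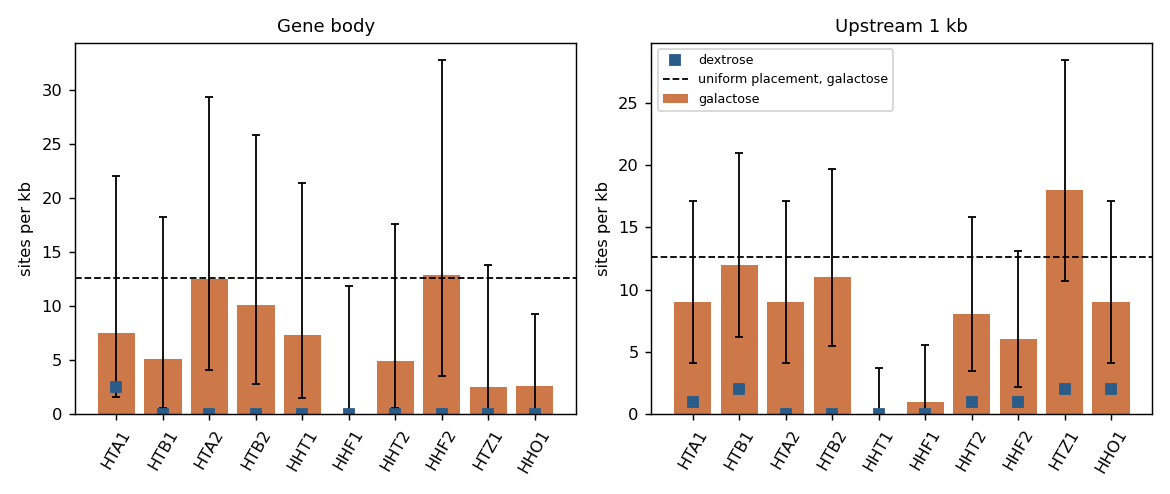
Sites per kb in the coding sequence (left) and in the 1 kb upstream (right) of each histone gene. Bars are galactose counts with exact 95% Poisson intervals, squares are dextrose counts and the dashed line is uniform placement for galactose at 12.6 per kb. HTZ1 has the highest upstream count with 18 sites, and HHT1 and HHF1 have 0 and 1.

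In all, 72 galactose sites and 7 dextrose sites fell in the bodies or upstream windows of the 10 genes, which is 0.0473% (0.037 to 0.0596) of the galactose library and 0.0625% (0.0251 to 0.129) of the dextrose library. The intervals of these shares overlap. No dextrose site at the histone genes came from a full-length interval, while 27 of the 72 galactose sites did. Over the whole libraries 25.8% of dextrose sites and 48.8% of galactose sites came from such intervals, and 7 dextrose sites are too few to tell 0 from that share. Of the 7 dextrose sites, 3 were at the position and strand of a galactose site, and 6 were within 2 bp of one on the same strand. Over the genome the shares were 57.1% and 68.8% of dextrose sites, or 47.2% and 61.1% for those over 2 kb from a tRNA gene. Whether reads passed between the libraries was not tested.

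A list of 19 genes chosen for their known roles was counted in the same way. It held regulators of the histone genes, chaperones and other factors that act on histones, and CSE4, the gene of the centromeric H3 variant. All 19 had a galactose site upstream, against 97.2% of all genes, and 14 had a dextrose site upstream, against 52.2% of all genes. Their median was 8 galactose sites in the upstream 1 kb, against 7 over all genes, and 16 of the 19 were below uniform placement, against 79.6% of all genes. ASF1, the H3 and H4 chaperone, had the most with 30. A tRNA gene (197313 to 197385) lies 187 bp from ASF1, beyond its 3′ end. The upstream window of ASF1 runs from 195287 to 196286, and the ASF1 body held 36 galactose sites, or 42.9 per kb. Whether these counts relate to the tRNA gene was not tested. RTT106, another chaperone of H3 and H4, had 16 and SPT21, a partner of Spt10 in histone gene activation, had 13. None of the 19 had 0, and SPT10 had the fewest with 1. In the gene bodies all 19 had a galactose site, against 92.7% of all genes, with a median of 6.47 per kb against 5.39. These bodies measured between 462 bp (CHZ1) and 4947 bp (HIR3), and no share among genes of like length was computed.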

How the data were processed

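Ty1 insertion sites were taken from 2 deposited interval lists, 1 per medium. The labels' protocols describe MseI-digested genomic DNA that was ligated to an adaptor, cut with BglII, amplified by PCR and selected by size. Per the submitters' processing notes, the authors used Picard 3.4.0, bedtools 2.31.1, SAMtools 1.22, BWA 0.7.19 and Trimmomatic 0.39 on the R64 (sacCer3) build, with settings not given in the sources used here. In the deposited lists each interval carries a mapping score, between 30 and 60, and start and end positions, which the authors did not normalize. The names of the deposited files state that duplicates were removed.

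The lists held 170698 (galactose) and 11577 (dextrose) intervals, and 300 and 46 mitochondrial ones were left out. Uniform placement used 12069662 nuclear positions. Genes came from a RefSeq table of the same build, in which gene bounds are those listed and systematic names gave the strand. Counts carry exact Poisson intervals, shares Clopper-Pearson intervals and density ratios exact conditional binomial intervals, all at 95% (Python 3.11.15, pandas 2.3.3, SciPy 1.17.1). The counting was tested on simulated data. Genome sequence, and with it the distance to MseI sites, was not used here. The members and gene lists were chosen with earlier results of these data known. All members, their nearest tRNA genes, the 3 regions closest in density, and the regulators with the most sites or 0 sites upstream were named by a written rule. The lowest regulator and the clusters and pairs of sites were named after their values were seen.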

Additional observations from a re-analysis of the deposited data

How the results depend on the processing

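No paired analysis was possible because each medium has 1 insertion library with no replicate number. Of 54 values recomputed under an alternative, 33 stayed within 1.5 times the reported count or within the interval of the reported ratio. The other 21 moved further. The density ratio crossed to the other side of 1 in 0 cases, a check that does not apply to the counts, which are most of the values. Sites with at least 2 intervals gave a density ratio to other divergent regions of 0 (0 to 1.24), an interval that includes 1. There were then 0 galactose and 0 dextrose sites in the promoters, 2 and 0 in the bodies and 6 and 0 upstream. Full-length intervals gave 7 and 0 in the promoters, 10 and 0 in the bodies and 26 and 0 upstream. Fewer intervals enter both by construction. Counted by 3′ end, the promoters held 17 galactose sites (9.9 to 27.2), with a ratio of 0.262 (0.153 to 0.419). The bodies then held 39 galactose sites (27.7 to 53.3) and the upstream windows 79 (62.5 to 98.5). Upstream windows of 500 bp held 36 galactose and 4 dextrose sites, and windows of 2 kb held 149 galactose sites. The ratio was 0.475 with sites within 5 bp merged, 0.679 (0.408 to 1.06) against regions over 2 kb from a tRNA gene, 0.391 against regions of 400 to 1200 bp and 0.664 (0.399 to 1.04) against regions with no other gene inside. Leaving out each promoter in turn gave ratios between 0.178 (without HTA1-HTB1) and 0.312 (without HHT1-HHF1). With a mapping score of 60 only, a setting chosen after seeing the data, the bodies held 0 dextrose sites and 19 galactose sites. At this depth dextrose counts per gene, from 0 to 2, cannot rank the genes.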
